A study of Mus musculus with 5 samples.

Results

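Myelin genes encode the proteins and lipid enzymes of the sheath that oligodendrocytes wrap around axons. The 9 genes described here are Mbp, Mog, Mag, Mobp, Cnp, Mal, Cldn11, Opalin and Ugt8a, each found by its symbol among the 19221 genes of the deposited table. All 9 reached 1 RPKM (reads divided by the gene's length and by the size of the library) in at least 1 library, as did 12783 genes in all. The set was defined by gene names, with earlier results of these data known.

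The libraries come from a mouse model of a small deep stroke, in male C57BL/6 mice aged 9 weeks. An optical fibre was lowered 3 mm below the dura into the caudate putamen, the dorsal striatum, and rose bengal was given at 100 mg/kg into the peritoneum. Light of 532 nm at 30 mW for 2 min then made the dye clot the lit vessels, which is called photothrombosis. The stroke libraries, from the right hemisphere, were taken 4 hours, 1 day, 3 days and 10 days later, and each pooled the focal tissue of 6 animals. The sham library pooled punches of the left caudate putamen of the mice, where fibre and laser were applied before the dye, so every animal carried a lesion on the other side. The labels used here do not say how many animals, or which times, entered the sham pool. Each group is 1 library, so no difference below has a replicate check and no test between conditions was made.

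The libraries held between 42261787 and 48013851 reads. Loci of ribosomal RNA took between 26.5% of reads, at 4 hours, and 41.2%, in sham. The libraries of day 1, day 3 and day 10 had shares of 34.4%, 28.8% and 37.5%. A larger share there leaves a smaller share for the other genes. The shifts of all genes given next did not follow these shares in every library. Day 1 had a smaller ribosomal share than sham and a median slightly below sham. The part of the ribosomal share in these shifts was not tested. All 12783 genes together had a median log2 fold over sham of 0.28 for the 4-hour library, -0.02 for day 1, 0.12 for day 3 and 0.07 for day 10. Values are therefore also given after median-of-ratios scaling, which brings the typical gene of each library to the level of sham and is called scaled below. It divides out a log2 factor of 0.37 from the 4-hour library, -0.11 from day 1, 0.14 from day 3 and 0.16 from day 10. Neurons of the striatum were present in every library, with 14 medium spiny neuron genes summing to between 982 and 2518 RPKM over the 4 stroke libraries and to 1971 RPKM in sham.

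Compact myelin is a stack of oligodendrocyte membranes held together by proteins such as Mbp, and around it lie looser loops that contact the axon. Myelin mRNAs are among the abundant transcripts of mature oligodendrocytes, and precursor cells switch them on when they differentiate. The mRNAs of Mbp and Mobp are known to be carried into the cell processes and translated there, while membrane proteins such as Mog and Mag are made at the endoplasmic reticulum. In whole tissue, fewer oligodendrocytes and less myelin mRNA per cell cannot be told apart.

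The genes lie on 8 chromosomes. On GRCm38, in the GENCODE release 21 annotation, Mog is at chr17:37010743-37023398, Mag at chr7:30899176-30914873 and Mobp at chr9:120149707-120181484. Cnp is at chr11:100574904-100591729, Mal at chr2:127633226-127656695 and Opalin at chr19:41061710-41077113. Cldn11 at chr3:31149920-31164324 and Ugt8a at chr3:125865271-125938619 share a chromosome. Exons of Mobp overlap a transcript on the same strand that is listed as AC110091.1, and exons of Cnp overlap Dnajc7 on the opposite strand. The labels used here name no strand setting, so reads of overlapping genes may not have been told apart. AC110091.1 was at 6.27 RPKM at 4 hours, then 6.34 at day 1, 2.60 at day 3 and 3.47 at day 10, against 4.06 in sham, so its order of libraries was close to that of Mobp described below. Dnajc7 was between 3.05 and 6.49 RPKM at the stroke times and at 4.52 RPKM in sham, far below Cnp.

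The promoter sequences of 5 members are shown because these members make up the contrasting time courses described below. Mobp and Opalin had their highest ratios to Mog, Mal and Cldn11 at day 1, though for Mobp to Cldn11 by only 1.02 times over sham. Mog, Mal and Cldn11 were the members highest over sham at 4 hours. Cnp and Mag also had their highest level at 4 hours. Their windows are not printed but hold matches given below, so the printed windows do not stand for all members. Each window runs from 250 bases before to 50 after the annotated start, 5′ to 3′ on the gene's strand, from RefSeq on GRCm38.p6, whose table held 8 of the 9 genes. The windows are Mobp at chr9:120149492-120149791 (plus strand), Opalin at chr19:41077064-41077363 (minus), Mog at chr17:37023349-37023648 (minus), Mal at chr2:127656646-127656945 (minus) and Cldn11 at chr3:31149670-31149969 (plus). Capitals mark exact matches, on either strand, to ACAAAG (a core bound by SOX factors such as Sox10), CAGCTG (an E-box bound by Olig2 and other factors) or CTGGCAC (a form of the Myrf motif).
Mobp: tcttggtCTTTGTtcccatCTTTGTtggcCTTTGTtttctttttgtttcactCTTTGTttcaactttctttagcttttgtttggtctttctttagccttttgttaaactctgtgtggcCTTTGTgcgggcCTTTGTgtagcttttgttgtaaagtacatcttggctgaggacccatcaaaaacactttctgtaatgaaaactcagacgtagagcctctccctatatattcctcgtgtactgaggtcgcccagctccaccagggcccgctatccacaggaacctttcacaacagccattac
Opalin: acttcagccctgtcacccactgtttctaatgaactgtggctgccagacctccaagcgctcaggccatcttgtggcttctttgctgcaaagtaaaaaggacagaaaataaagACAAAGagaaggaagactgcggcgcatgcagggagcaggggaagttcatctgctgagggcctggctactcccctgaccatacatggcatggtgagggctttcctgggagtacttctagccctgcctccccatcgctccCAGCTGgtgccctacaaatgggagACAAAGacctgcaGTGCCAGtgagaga
Mog: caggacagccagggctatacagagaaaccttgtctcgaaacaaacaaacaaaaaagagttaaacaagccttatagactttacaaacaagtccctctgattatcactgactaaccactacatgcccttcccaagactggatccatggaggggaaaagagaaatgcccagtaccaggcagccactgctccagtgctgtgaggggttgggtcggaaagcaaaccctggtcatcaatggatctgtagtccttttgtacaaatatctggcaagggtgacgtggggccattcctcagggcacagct
Mal: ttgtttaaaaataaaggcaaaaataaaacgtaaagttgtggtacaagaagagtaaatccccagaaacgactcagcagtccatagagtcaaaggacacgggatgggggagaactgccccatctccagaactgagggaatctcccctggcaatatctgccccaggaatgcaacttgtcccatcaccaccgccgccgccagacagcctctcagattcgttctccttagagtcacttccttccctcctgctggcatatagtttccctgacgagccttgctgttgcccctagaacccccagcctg
Cldn11: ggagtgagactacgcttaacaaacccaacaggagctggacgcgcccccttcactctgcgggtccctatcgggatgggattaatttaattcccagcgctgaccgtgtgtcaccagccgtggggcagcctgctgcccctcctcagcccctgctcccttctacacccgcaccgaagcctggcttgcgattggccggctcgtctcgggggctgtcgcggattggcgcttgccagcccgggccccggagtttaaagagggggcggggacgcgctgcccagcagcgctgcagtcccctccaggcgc

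ACAAAG or its reverse stood in the windows of 4 of 8 members, namely Cnp, Mag, Mobp and Opalin, and in those of 21.02% of the 27025 genes of the table. By window, 5 of 10 member windows and 18.7% of all 32851 held it. Overlapping windows of Mag share the same match, which is thus counted more than once. Mobp held 6 matches, all read as CTTTGT on the printed strand, and it was the 1 window of the 32851 with as many. CTGGCAC stood in the windows of 3 of 8 members, Cnp, Mag and Opalin, and in those of 5.73% of all genes. CAGCTG stood in the windows of 1 of 8 members, across the annotated start of Opalin, and in those of 18.3% of all genes. Mog, Mal, Cldn11 and Ugt8a held none of these letters in this stretch. Myelin genes are also controlled by more distant elements, which were not examined, and the matches are a description of the letters only.

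Mbp, which binds the inner faces of the myelin membrane together, was the most abundant member in every library. It was at 896 RPKM at 4 hours, then 1029 at day 1, 480 at day 3 and 651 at day 10, against 611 RPKM in sham. Its level was thus high in the first day, lowest at day 3, and close to sham at day 10. Mbp made up 48.0% of the summed RPKM of the 9 genes at 4 hours and 66.4% at day 1, against 56.7% in sham.

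Mobp, another basic protein of compact myelin, was at 105 RPKM at 4 hours and 99.9 at day 1, then 49.1 at day 3 and 55.4 at day 10, against 74.9 RPKM in sham. The first pair of stroke libraries was above sham and the later pair below it. Opalin, a glycoprotein of the paranodal and inner loops, was at 31.0 RPKM at 4 hours, then 45.2 at day 1, 19.2 at day 3 and 20.6 at day 10, against 17.1 RPKM in sham. Day 1 was its highest library, and the 4 stroke libraries all lay above sham as deposited.

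Mog, a surface glycoprotein of the outermost myelin layer, was at 105 RPKM at 4 hours, then 43.0 at day 1, 35.0 at day 3 and 41.8 at day 10, against 33.2 RPKM in sham. The 4-hour library stood far above the others. Mal, a lipid raft protein that takes part in membrane sorting, was at 71.5 RPKM at 4 hours and 21.6 at day 1, then 16.3 at day 3 and 16.8 at day 10, against 23.7 RPKM in sham. Mal had the widest range of the 9 genes, with a highest level 4.38 times the lowest (3.73 times after scaling). Cldn11, the claudin of the tight junctions between myelin layers, was at 190 RPKM at 4 hours, then 85.6 at day 1, 86.0 at day 3 and 61.4 at day 10, against 65.7 RPKM in sham. It stayed above sham up to day 3 and was slightly below it at day 10.

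Cnp, an enzyme that keeps cytoplasmic channels open in the sheath, was at 349 RPKM at 4 hours, then 164 at day 1, 166 at day 3 and 222 at day 10, against 182 RPKM in sham. Mag, an adhesion molecule of the innermost membrane facing the axon, was at 119 RPKM at 4 hours and 61.3 at day 1, then 65.6 at day 3 and 64.7 at day 10, against 69.0 RPKM in sham. From day 1 on, Mag varied little and stayed just below sham. Ugt8a, the enzyme that makes galactosylceramide, a main myelin lipid, was at 2.55 RPKM at 4 hours, then 0.880 at day 1, 1.36 at day 3 and 1.56 at day 10, against 1.3 RPKM in sham. It was by far the lowest member, with between 185 and 531 reads in the stroke libraries and 265 in sham, and day 1 was its lowest library.

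**Figure D1:**
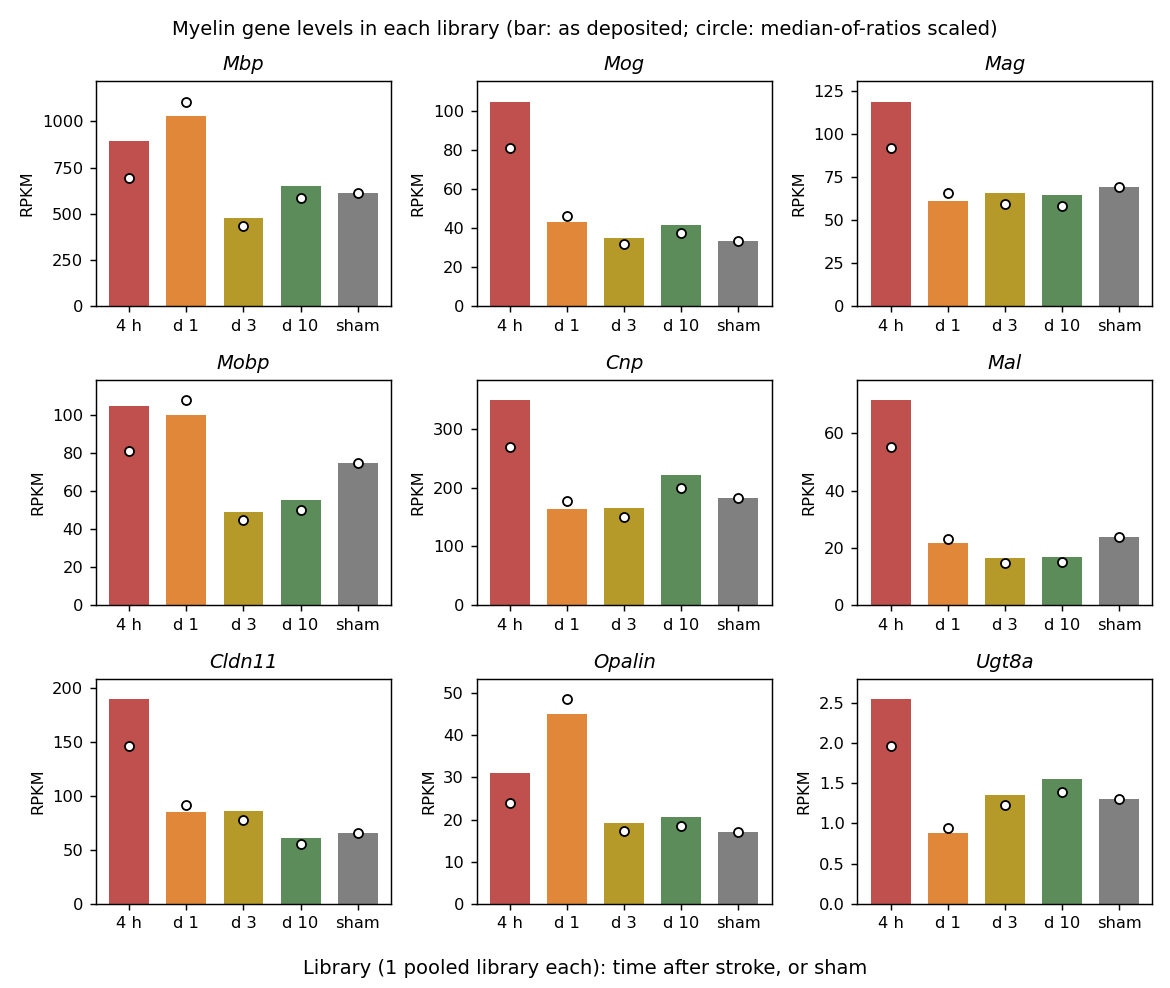
Level of each of the 9 myelin genes in RPKM (bars as deposited, circles after median-of-ratios scaling) in the 4 stroke libraries and sham, 1 pooled library each, on axes that start at 0. The 4-hour bar is the tallest for 7 genes, and the day 1 bar is the tallest for Mbp and Opalin.

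At 4 hours every member was above sham. Most of the 12783 genes were too as deposited, with a median log2 fold of 0.28 (0.01 scaled). Mog had 105 RPKM at 4 hours against 33.2 RPKM in sham, a ratio of 3.15 (interval 2.96 to 3.36 from counting). Mal had a ratio of 3.01 (interval 2.84 to 3.20) and Cldn11 of 2.89 (2.77 to 3.02). These intervals are exact at 95% and cover counting error only, not the differences between pools of animals. The smallest ratios were those of Mobp, at 1.40, and Mbp, at 1.47.

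On the scale log2((stroke RPKM + 1) / (sham RPKM + 1)), which understates the differences of low genes, Mog was at 1.63, Mal at 1.55 and Cldn11 at 1.52. These were the 3 members of 9 at least 2-fold higher, as were 2.2% of the 12783 genes, and none was 2-fold lower, as were 1.09%. After scaling the same 3 remained past that size, at 1.26, 1.18 and 1.15, beside 0.61% of all genes. At the smaller size of 1.5-fold, 7 members were higher, all but Mbp and Mobp, beside 18.5% of all genes. After scaling that count was 3, beside 3.68%. The median of the 9 genes was 0.82 as deposited and 0.46 scaled, and that of all genes 0.28 and 0.01. All 9 kept a positive log2 fold under each of the 3 other scalings tried, and the lowest of these values was 0.11, for Mobp.

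The members' 4-hour median was also positive when another stroke library took the place of sham. It was 1.07 against day 3, 0.87 against day 10 and 0.94 against day 1 (0.84, 0.65 and 0.61 scaled). All genes had a median log2 fold of -0.31 for day 1 over 4 hours (0.03 scaled). Most of them were thus also higher at 4 hours as deposited. The medians and shares of all genes against day 3 and day 10 are not given, so those values are not read as particular to the members. These comparisons were added after the data had been seen. Of all 12783 genes, 48.8% had their highest level in the 4-hour library as deposited and 26.6% after scaling, and of the 9 members 7 and 6.

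Other transcripts also moved with the 4-hour library. The 11 choroid plexus and ependymal genes summed to 756 RPKM at 4 hours, then 317 at day 1, 46.7 at day 3 and 19.7 at day 10, against 89.4 RPKM in sham, with Otx2 at 0 at day 1. Nearly all of this was Ttr, the transthyretin gene, at 729 RPKM at 4 hours and 303 at day 1, against 77.4 in sham. The 10 cortical excitatory neuron genes summed to 151 RPKM at 4 hours and 127 at day 1, against 91.4 in sham, none at 0. All 9 measured cortical genes were above sham at both times. Most of all genes were too at 4 hours as deposited, with a median log2 fold of 0.28 (0.01 scaled). At day 1 the median of all genes was -0.02 (0.05 scaled). The part of the choroid plexus, ependymal and cortical transcripts in the myelin values was not tested.

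**Figure D2:**
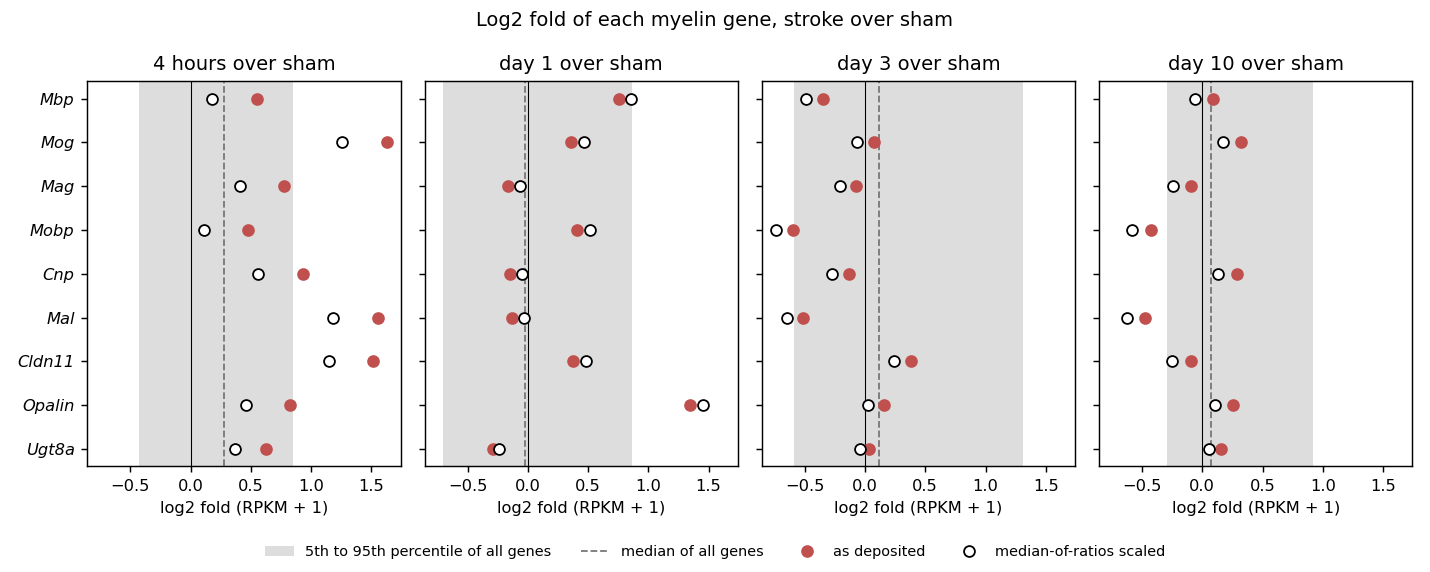
Log2 fold of RPKM + 1 over sham for each myelin gene at the 4 times (filled circles as deposited, open circles scaled). The grey band spans the 5th to 95th percentile of all 12783 genes as deposited and the dashed line is their median; as deposited, Mog, Mal, Cldn11 and Cnp lie right of the band at 4 hours and Opalin does at day 1, while Mobp lies left of it at day 3 and Mobp and Mal do at day 10.

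At day 1 the members parted. Opalin was at 45.2 RPKM at day 1 against 17.1 RPKM in sham (log2 fold 1.35, ratio 2.64) and Mbp at 1029 against 611 RPKM (0.75, ratio 1.69, interval 1.67 to 1.70 from counting). Mobp (0.41), Cldn11 (0.38) and Mog (0.36) were also above sham. Cnp (-0.15), Mag (-0.17), Mal (-0.13) and Ugt8a (-0.29) were below it. These signs held under each scaling tried.

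Opalin was the 1 member at least 2-fold higher at day 1, a size that 3.33% of all genes reached, and 4.54% after scaling, and 1.29% of genes had a log2 fold as high as that of Opalin. At 1.5-fold Mbp joined it, beside 11.1% of all genes. None of the 9 was 2-fold lower, as were 1.35% of all genes. No counting interval is given for Opalin, because its RPKM did not give whole reads with the exon length of the annotation. The median of the 9 genes was 0.36 (0.47 scaled), against -0.02 (0.05 scaled) for all genes.

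Set against 4 hours, 7 members were lower at day 1 as deposited and 6 after scaling. Most of all genes were lower as deposited too, with a median log2 fold of -0.31 (0.03 scaled). The members' median was -0.94 (-0.61 scaled). Mal was at 21.6 RPKM at day 1 against 71.5 RPKM at 4 hours (log2 fold -1.69, ratio 0.301 with an interval of 0.283 to 0.320). Mog (-1.26), Cldn11 (-1.14) and Cnp (-1.08) were also at least 2-fold lower on RPKM + 1, which made 4 of 9, beside 5.7% of all genes. After scaling Mal alone stayed past that size on RPKM + 1 (-1.22), beside 0.954% of all genes. Ugt8a was at -0.92 (scaled -0.61) on that scale, which understates the differences of low genes. Its ratio of RPKM was 0.346 (interval 0.268 to 0.436 from counting), lower than those of Mog, Cldn11 and Cnp. None of the 9 was 2-fold higher, beside 2.7%. Mbp was higher at day 1 (0.20, scaled 0.68), as was Opalin (0.53, scaled 0.99). Mobp was at -0.07 as deposited and at 0.41 scaled, so its sign depends on the scaling.

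Ratios between members do not depend on the scaling of a library, and they show the same division. Opalin stood to Cnp as 0.276 at day 1, and between 0.0890 and 0.116 at the other stroke times, against 0.0941 in sham. Mbp stood to Cnp as 6.28 at day 1, and between 2.57 and 2.93 at the other stroke times, against 3.36 in sham. Mobp stood to Cnp as 0.610 at day 1, and between 0.250 and 0.301 at the other stroke times, against 0.412 in sham. Of the 18 ratios of Mbp, Mobp or Opalin to each of the other 6 members, all 18 were highest at day 1. The margin over the next highest library ran from 1.02 times, for Mobp to Cldn11, up to 3.63 times, for Opalin to Ugt8a. This grouping was chosen after the values had been seen and is a description of 5 libraries.

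**Figure D3:**
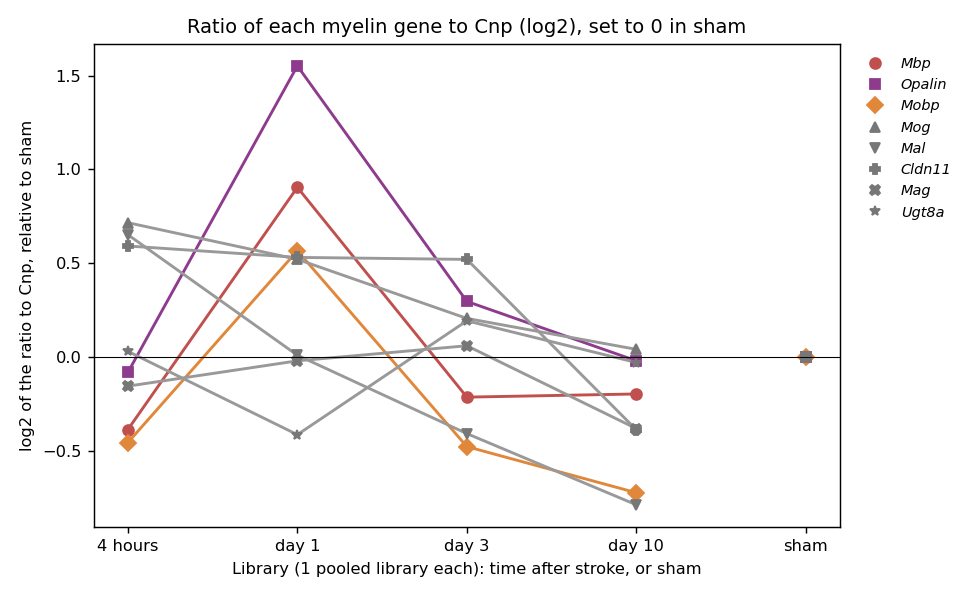
Ratio of each of the other 8 myelin genes to Cnp on a log2 scale, set to 0 in sham, in the 4 stroke libraries and sham (1 pooled library each). Opalin, Mbp and Mobp (coloured) have their highest point at day 1, and Mog, Mal and Cldn11 are above their sham ratio at 4 hours.

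At day 3 Mobp, Mal and Mbp were below sham, Cldn11 was above it and the other 5 were closer to it as deposited. Mobp was at 49.1 RPKM at day 3 against 74.9 RPKM in sham (log2 fold -0.60, ratio 0.656 with an interval of 0.636 to 0.675) and Mal at 16.3 against 23.7 RPKM (-0.51, ratio 0.688, interval 0.634 to 0.747). Mbp was at -0.34 (ratio 0.787, interval 0.780 to 0.794). Cldn11 was at 86.0 against 65.7 RPKM (0.38, ratio 1.31, interval 1.24 to 1.38), and was above sham under each scaling tried. None of the 9 was 2-fold higher, as were 9.04% of all genes, and none 2-fold lower, as were 0.618%. Mobp was the 1 member 1.5-fold lower, beside 5.26% of all genes, and Mal joined it after scaling, beside 8.13%. The median was -0.07 (scaled -0.21), against 0.12 (scaled 0.01) for all genes. Mog and Ugt8a were at 0.07 and 0.03 as deposited and at -0.07 and -0.05 scaled, so their side of sham depends on the scaling. Opalin was at 0.16 as deposited, 0.02 scaled and -0.09 when ribosomal, mitochondrial, predicted and small RNA genes were left out, so its side does too.

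Set against day 1, Mbp, Mobp and Opalin were the members at least 2-fold lower at day 3. Mbp was at 480 RPKM at day 3 against 1029 RPKM at day 1 (log2 fold -1.10, scaled -1.35). Mobp was at -1.01 (scaled -1.25) and Opalin at -1.19 (scaled -1.43). These 3 of 9 stand beside 0.939% of all genes as deposited and 1.67% scaled, and none of the 9 was 2-fold higher, beside 7.46%. The other 6 lay between -0.38, for Mal, and 0.33, for Ugt8a. Mag, Cnp and Cldn11 were at 0.10, 0.02 and 0.01 as deposited and at -0.15, -0.23 and -0.24 scaled, so their sign depends on the scaling.

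At day 10 Mobp and Mal were the lowest members against sham, and Mog and Cnp the highest. Mobp was at 55.4 RPKM at day 10 against 74.9 RPKM in sham (log2 fold -0.43, scaled -0.58, ratio 0.740 with an interval of 0.720 to 0.761). Mal was at 16.8 against 23.7 RPKM (-0.47, scaled -0.62, ratio 0.708, interval 0.654 to 0.765). Of all genes, 1.76% had a log2 fold as low as that of Mobp and 1.28% as low as that of Mal. The other 7 lay between -0.10, for Cldn11, and 0.32, for Mog. Mog had a ratio of 1.26 (interval 1.17 to 1.35) and Cnp of 1.22 (interval 1.19 to 1.25). Their scaled log2 folds were 0.17 and 0.13. None of the 9 was 2-fold higher or lower, beside 4.2% and 0.172% of all genes, and none was 1.5-fold lower as deposited, beside 0.759%, while after scaling Mal was, beside 1.33%. The median was 0.09, and -0.06 after scaling. Mbp, at 0.09 as deposited and -0.06 scaled, lay on either side of sham by scaling.

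Between day 3 and day 10, Mbp was at 651 RPKM at day 10 against 480 RPKM at day 3 (log2 fold 0.44) and Cnp at 222 against 166 RPKM (0.42). Cldn11 was lower, at 61.4 RPKM at day 10 against 86.0 RPKM at day 3 (-0.48, ratio 0.714 with an interval of 0.679 to 0.751). None of the 9 was 2-fold higher or lower, beside 0.626% and 2.77% of all genes.

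Counts of other gene lists below use the same size of 2-fold on RPKM + 1 over sham. Of all 12783 genes, 2.2% were that much higher at 4 hours, then 3.33% at day 1, 9.04% at day 3 and 4.2% at day 10. After scaling these shares were 0.61%, 4.54%, 7.26% and 3.39% in order of time. The shares that were 2-fold lower were 1.09%, 1.35%, 0.618% and 0.172% as deposited and 1.9%, 1.04%, 1.09% and 0.219% scaled.

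The other genes of the mature sheath lay below the members in their medians at 4 hours and day 1. Of 40 listed, 38 were measured at 1 RPKM or more, and their median log2 fold over sham at 4 hours was 0.65, then 0.15 at day 1, -0.01 at day 3 and 0.05 at day 10 (scaled 0.31, 0.24, -0.15 and -0.06). At 4 hours 4 of them were at least 2-fold higher and 0 lower, with counts of 3 and 0 at day 1, 5 and 0 at day 3, and 1 and 0 at day 10. After scaling 0 of them were 2-fold higher at 4 hours, and 5, 4 and 1 at the later times, while the members kept 3 at 4 hours.

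Of the mature genes, 2 of 38 had their highest level at day 1, as did 9.51% of all genes, and 10 of 38 after scaling, as did 23.7%. Plekhb1, a membrane-binding protein of oligodendrocytes and photoreceptors, was at 132 RPKM at 4 hours, then 175 at day 1, 74.6 at day 3 and 89.4 at day 10, against 92.05 RPKM in sham. Gjb1, the connexin 32 gene of the gap junctions within myelin, was at 18.3 RPKM at 4 hours, then 25.9 at day 1, 18.9 at day 3 and 12.7 at day 10, against 13.1 RPKM in sham. Plekhb1 and Gjb1 are the 2 genes counted as deposited, and were named after their values were seen.

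Most mature genes, 28 of 38, were highest at 4 hours (17 scaled), beside 48.8% of all genes (26.6% scaled). At day 3, when phagocyte genes were high too, 7 of 38 were highest (6 scaled), beside 26.0% of all genes (24.6% scaled). Cd9, Apod and Trf, named for the size of their folds, were among those highest at day 3. Cd9, a tetraspanin that phagocytes and other cells also express, was at 55.1 RPKM at day 3 (log2 fold 2.02), Apod, a lipid-binding apolipoprotein, at 353 RPKM (1.54) and Trf, the transferrin gene, at 138 RPKM (1.45). The 16 microglia and macrophage genes summed to 3223 RPKM at day 3 and 3601 at day 10, against 428 RPKM in sham, with none at 0. Their part in the values of these genes was not tested.

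Transcription factors of the lineage did not follow the members at every time. Of 11 listed, 7 were measured, with a median log2 fold of 0.61 at 4 hours, when Olig1 and Olig2 were at least 2-fold higher, -0.10 at day 1, 0.46 at day 3 and 0.15 at day 10, with none past 2-fold at those 3 times. After scaling 0 of the 7 were 2-fold higher at 4 hours, with Olig1 at 0.67 and Olig2 at 0.68. Scaled medians were 0.29 at 4 hours, near 0 at day 1, 0.33 at day 3 and 0.01 at day 10. Olig1, a factor of oligodendrocyte maturation, was at 90.9 RPKM at 4 hours, then 31.9 at day 1, 61.6 at day 3 and 47.1 at day 10, against 43.6 RPKM in sham. Sox10, which activates myelin genes, was at 21.6, 16.4, 25.4 and 22.0 RPKM at the same times, against 17.7 RPKM in sham. Myrf, the factor required for myelin gene expression, was at 7.95, 5.13, 3.95 and 5.14 RPKM, against 4.85 RPKM in sham. Olig2, which specifies the lineage, had log2 folds of 1.02 at 4 hours and 0.46 at day 3. The median of the members minus that of these factors was 0.21 at 4 hours, then 0.46 at day 1, -0.53 at day 3 and -0.06 at day 10.

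Precursor genes were lower at day 1. The 7 measured precursor genes, of 13 listed, were all below sham at day 1, with a median of -0.50 (scaled -0.42). All genes had a median of -0.02 there (scaled 0.05). Cspg4, the NG2 proteoglycan gene, was at 0.35 RPKM at day 1 against 0.93 in sham. The list's medians at the other times were 0.26, 0.13 and 0.14 (scaled -0.04, 0.06 and 0.05). None of its genes was past 2-fold on RPKM + 1 at any time. That scale understates differences near 1 RPKM, and Cspg4 was at 2.40 RPKM at day 3. Pdgfra, the receptor that defines precursors, stayed below 1 RPKM in every library. The 9 measured genes of committed and newly formed oligodendrocytes, of 15 listed, had medians of 0.50, -0.22, -0.22 and 0.16 in order of time (scaled 0.24, -0.18, -0.30 and 0.09). At day 1 their directions were mixed, with 3 of 9 above sham (4 scaled). Bcas1, a gene of oligodendrocytes that are forming myelin, was at 46.0 RPKM at 4 hours and 62.8 at day 1, then 25.5 at day 3 and 30.4 at day 10, against 33.9 RPKM in sham. Bcas1 overlaps genes on the opposite strand. Gpr17, a receptor of cells about to differentiate, was at 1.17 RPKM at day 1 against 3.98 RPKM in sham (log2 fold -1.20), and was the 1 of these genes past 2-fold at any time. Its exons overlap Lims2.

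Genes of myelin lipid synthesis, breakdown and transfer were mostly above sham at 4 hours, as were most of all genes as deposited. The 16 measured galactolipid and long-chain lipid genes, of 21 listed, had a 4-hour median of 0.69 (scaled 0.39) and 3 were at least 2-fold higher, namely Cers2, the ceramide synthase of very long chains (1.27), Degs1, a desaturase (1.18), and Elovl1, an elongase (1.09). After scaling none of the 3 was past that size (0.92, 0.83 and 0.75). Fa2h, which makes the hydroxylated fatty acids of galactosylceramide, was at 15.2 RPKM at 4 hours, then 5.37 at day 1, 5.89 at day 3 and 7.28 at day 10, against 7.54 RPKM in sham. Gal3st1, which adds the sulfate of sulfatide, was at 12.5 RPKM at 4 hours and 10.0 at day 1, against 8.06 RPKM in sham. The list's medians at the later times were 0.09, 0.30 and 0.24 (scaled 0.17, 0.17 and 0.11), with 2 of 16 at least 2-fold higher at day 3 (1 scaled).

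Cholesterol, a main lipid of myelin, is made in the tissue. The 20 measured synthesis and regulatory genes, of 21 listed, had a median log2 fold of 0.65 at 4 hours, then 0.36 at day 1, -0.12 at day 3 and -0.26 at day 10 (scaled 0.39, 0.44, -0.16 and -0.33). All 20 were above sham at 4 hours (17 scaled) and at day 1 (20 scaled), with 3 at least 2-fold higher at 4 hours (1 scaled) and 2 at day 1 (3 scaled). The median of all genes was 0.28 at 4 hours (0.01 scaled) and -0.02 at day 1 (0.05 scaled). Most of all genes were thus above sham at 4 hours as deposited too, and their exact shares are not given. Hmgcs1, which makes the first committed intermediate, was at 4.31 RPKM at 4 hours and 3.94 at day 1, then 2.19 at day 3 and 2.32 at day 10, against 3.75 RPKM in sham.

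On the axon side the values ran lower. The 16 genes of nodes, paranodes and axon contact had a median of 0.17 at 4 hours (scaled -0.16), -0.51 at day 1, -0.57 at day 3 and -0.11 at day 10 (scaled -0.42, -0.66 and -0.22), and none was 2-fold higher or lower as deposited, while 1 was lower at day 3 after scaling. Cntnap1, the Caspr gene of the paranodal axon membrane, was at 19.4 RPKM at day 3 against 34.5 RPKM in sham (log2 fold -0.80). Of the 14 medium spiny neuron genes, 7 were at least 2-fold lower at day 1 (4 scaled), where their scaled median was -0.89, beside a scaled myelin median of 0.47 in the same library. The scaled medians of the list at 4 hours, day 3 and day 10 were -0.01, -0.57 and -0.36. The 14 general neuron genes had medians of 0.56, -0.23, -0.25 and -0.17 in order of time (scaled 0.19, -0.13, -0.38 and -0.32). Those of the 12 astrocyte genes were 0.24, -0.36, -0.32 and 0.09 (scaled -0.10, -0.28, -0.46 and -0.06). Their side of sham at 4 hours and day 10 thus depends on the scaling. The 9 measured endothelial and pericyte genes had -0.13, -0.22, 0.37 and 0.31 (scaled -0.29, -0.15, 0.26 and 0.20).

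**Figure D4:**
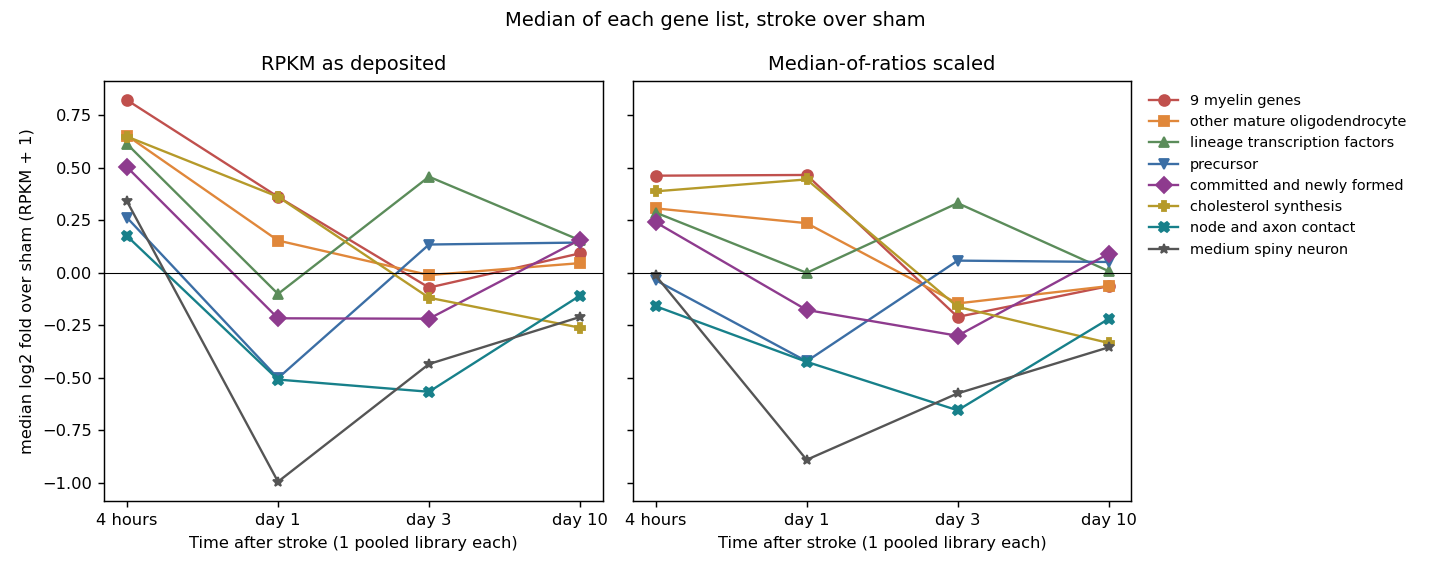
Median log2 fold of RPKM + 1 over sham of 8 gene lists at the 4 times after stroke, as deposited (left) and after median-of-ratios scaling (right), 1 pooled library per time. The 9 myelin genes have the highest 4-hour median among these 8 at either scale. The choroid plexus and ependymal list, not drawn, had a higher one (0.91, scaled 0.71), as did the 2 measured Schwann cell genes after scaling (0.49). At day 1 the myelin, cholesterol and other mature oligodendrocyte lists are above 0 while the medium spiny neuron list is lowest.

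Myelin also carries signals that limit axon growth. Mag is 1 of these, with Omg and Rtn4 (Nogo) as the other main ligands. Omg was at 16.9 RPKM at 4 hours and Rtn4 at 18.6, against 10.8 and 13.2 RPKM in sham. The 10 measured ligand and receptor genes, of 11 listed, had medians of 0.44, -0.06, -0.01 and 0.06 in order of time (scaled 0.10, 0.04, -0.12 and -0.08). On RPKM + 1 none was past 2-fold at 4 hours or day 1, and 1 was higher at day 3 and at day 10. Pirb, an immune receptor that binds these ligands, was at 2.52 RPKM at day 3 against 0.24 in sham (log2 fold 1.51). Lrp1, a receptor that also takes up myelin debris, was at 5.71 RPKM at day 1 against 12.1 in sham (-0.97).

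Genes that oligodendrocytes express after injury had mixed courses. The 4-hour library was highest for 4 of 10 (3 scaled), beside 48.8% of all genes (26.6% scaled). Day 1 was highest for 1 (2 scaled), beside 9.51% (23.7% scaled). Day 3 was highest for 4 (4 scaled), beside 26.0% (24.6% scaled). Day 10 was highest for 1 (1 scaled), beside 11.7% (10.9% scaled). These counts are thus not read as particular to the list. The 10 measured, of 12 listed, had a median log2 fold of 0.06 at 4 hours, then 0.85 at day 1, 1.02 at day 3 and 0.59 at day 10 (scaled -0.21, 0.94, 0.89 and 0.48). At 4 hours 2 were at least 2-fold higher and 2 lower, and at the later times 4, 6 and 4 were higher and 0 lower. Scaled, 1 was higher and 3 lower at 4 hours, and 5, 4 and 3 were higher at the later times. Sgk1, a kinase induced by stress hormones, was at 27.7 RPKM at 4 hours against 7.44 RPKM in sham (1.76, scaled 1.41), and between 5.82 and 7.87 RPKM at the later times. Serpina3n, a protease inhibitor that reactive astrocytes also make, was at 4.66 RPKM at 4 hours and 264 at day 3, against 33.0 RPKM in sham. Klk6, a myelin-associated protease, was at 78.9 RPKM at day 3 against 9.37 in sham (2.94). Astrocytes and phagocytes express several of these genes, and Gfap, the astrocyte filament gene, was at 509 RPKM at day 3 against 102 in sham. Their part was not tested.

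Of 11 Schwann cell genes 2 were measured at 1 RPKM or more, and Pmp22, which other cells express too, was at 19.2 RPKM at day 3 against 4.74 in sham. The 11 genes summed to between 13.3 and 22.8 RPKM at the stroke times and to 8.86 RPKM in sham, with Dhh at 0 at 4 hours and Pmp2 at 0 at the later times.

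None of the genes whose course was most like the mean course of the members was on the oligodendrocyte lists. Among 1309 protein coding genes with a mean of at least 5 RPKM and a log2 range of at least 1, the 10 most alike had a Pearson's r of 0.990 to 0.998 with the members' mean log2 level over the 5 libraries. They were Ngrn, Rnf34, Ankrd46, Hpcal4, Fam103a1, Khdrbs3, Ndrg3, Prpsap2, Ncald and Eid1. Ngrn, at the top, was at 13.2 RPKM at 4 hours, then 7.75 at day 1, 5.92 at day 3 and 6.14 at day 10, against 6.51 RPKM in sham. Hpcal4 was at 79.9 RPKM at 4 hours against 42.0 in sham. Among the members, the likeness to their own mean was highest for Mog (0.972) and Mal (0.958) and lowest for Opalin (0.574). The mean includes each member, the libraries share their depth and composition, and 5 points allow many genes to be alike.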

How the data were processed

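Total RNA was sequenced from 5 libraries of micro-punched caudate putamen, 1 per group, after Trizol extraction and a library kit for total RNA (per the labels' protocols). Named without roles in the submitters' processing notes are GRCm38, StringTie 1.3.4d, HISAT2 2.1.0 and Trimmomatic 0.36. The authors deposited 1 table with an RPKM value per gene and library, per the file headers. It also holds the authors' log2 fold and GFOLD value at 0.01 for each pair of libraries, and p-value columns whose test is not stated, which were not used.

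Identifiers were matched to GENCODE mouse release 21 (19158 of 19221). Analysis covered the 12783 genes that reached 1 RPKM in some library, called measured in the text for lists. Folds are on log2 of RPKM + 1, and counts use a size of 2-fold. Read totals were recovered as the smallest total that made RPKM times union exon length whole within 0.02 of a read, which held for 90.4% to 90.5% of values below 5000 reads. Counting intervals use the recovered reads divided by 2, in case both mates of a pair were counted. Scaled values use median-of-ratios factors over genes above 0 in all 5 libraries. The recovery, factors and intervals were tested on simulated data. Alternatives were trimmed-mean scaling, rescaling without ribosomal, mitochondrial, predicted and small RNA genes, other pseudocounts (0.1, 0.5), no floor or one of 5 RPKM, a 1.5-fold limit and the authors' GFOLD value. Python 3.11.15, numpy 2.4.6, pandas 2.3.3, scipy 1.17.1 and matplotlib 3.10.9 were used.

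The 9 genes and 17 other lists were chosen with earlier results of these data known. Named were the 9 genes, up to 4 genes per list with the largest fold over sham, 11 core lineage genes, and the 10 most alike in course. Outside this rule, Plekhb1, Gjb1, Omg, Rtn4, Sgk1 and the overlap partners Dnajc7 and AC110091.1 were named after their values were seen. With 1 library per group there is no test, SD or p-value. St18 and Pcdh15 were not analysed here. Some genes that the naming rule covers are not reported here.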

Additional observations from a re-analysis of the deposited data

Results flagged for a closer look

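The members below were on opposite sides of sham at different times, by at least 1.2-fold as deposited and scaled, with counting intervals clear of 1. The differences between times were not tested, since each time is 1 library.

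Mbp was above sham at day 1 (log2 fold 0.75) and below it at day 3 (-0.34). Mobp was above sham at day 1 (0.41) and below it at day 3 (-0.60) and day 10 (-0.43). Mal was above sham at 4 hours (1.55) and below it at day 3 (-0.51) and day 10 (-0.47). Mobp and Mal were thus the members that remained lower at day 10, after different early courses.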

How the results depend on the processing

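No replicate could be left out, and no paired analysis was possible because each group is 1 library. Of 182 values under an alternative that bear on the 9 genes as a set, 152 stayed within 0.1 on the log2 scale, or within 1.5 times for counts. Scaling moved most of the rest. Under median-of-ratios scaling the members' median over sham came to 0.46 for 4 hours, 0.47 for day 1, -0.21 for day 3 and -0.064 for day 10, and -0.61 for day 1 over 4 hours and -0.53 for day 3 over day 1. Under trimmed-mean scaling it was 0.47 at 4 hours, -0.21 at day 3, -0.030 at day 10, -0.63 for day 1 over 4 hours and -0.51 for day 3 over day 1. Without ribosomal, mitochondrial, predicted and small RNA genes it was 0.52, -0.33, -0.046, -0.84 and -0.47 in the same order, and 0.23 for day 10 over day 3. With pseudocounts of 0.1 and 0.5 the median of day 1 over 4 hours was -1.09 in both cases. The count of members at least 2-fold lower at day 1 than at 4 hours was 4 as deposited, 1 under either of the first 2 scalings and 2 under the last. At 1.5-fold, 7 members were higher at 4 hours, 2 higher at day 1 and 1 lower at day 3. With day 1 or day 3 in place of sham, chosen after seeing the data, the 4-hour median was 0.94 or 1.07. The members' median minus that of other mature oligodendrocyte genes, in place of the transcription factors, was 0.21 at day 1, -0.060 at day 3 and 0.047 at day 10. Of 68 medians of other lists over sham, the sign turned for 9, 9 and 7 under the 3 scalings and for 0 under either pseudocount. Causes were not tested. Depth limits Ugt8a most among the members.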
